A study of Mus musculus with 6 samples.

Results

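The genes described here encode lysosomal enzymes that cut glycans and lipids, proteins that assist those enzymes, and proteins of the lysosomal membrane, many of them mutated in storage disease. They were chosen by symbol, and all 33 of the 33 listed symbols have a row among the 16179 genes of the deposited table. The groups compared are BODIPY-high (lipid droplet-rich) and BODIPY-low (lipid droplet-low) microglia, with 3 libraries each, sorted by flow cytometry as live CD11b+ and CD45-low cells from the hippocampus of male mice aged 10 months. BODIPY is a dye that stains neutral lipid. Every mouse in both groups was a progranulin knockout of the strain B6.129S4(FVB)-Grntm1.1Far/Mmja, and tissue of 2 mice was combined for each sample. A wild-type library was not analysed here, so each comparison lies within the knockout.

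Lysosomes break down what a cell takes up or recycles. Soluble hydrolases work in their acid interior and remove sugars, sulfate groups or fatty acyl chains one step at a time, so that the loss of a single enzyme leaves its substrate to pile up. Heavily glycosylated membrane proteins line the organelle, and channels and carriers in the membrane let ions and breakdown products out. Microglia, the resident phagocytes of the brain, hold many lysosomes. Progranulin is itself delivered to lysosomes and cut there into granulins, and people who lack it altogether develop neuronal ceroid lipofuscinosis, a lysosomal storage disease.

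Libraries are numbered by the replicate number of their sample. They held between 24982215 and 34899425 recovered reads. Grn, the targeted gene, had 468, 657 and 1614 normalised reads in BODIPY-high libraries 1 to 3, against 416, 625 and 990.1 in BODIPY-low libraries 1 to 3, and where along the gene these reads lie was not analysed here. Of 12 microglia markers, which took 4.68% to 4.92% of reads in BODIPY-high and 5.31% to 5.71% in BODIPY-low libraries, none is at 0 in any library. By limma 3 fell in BODIPY-high libraries, namely Cx3cr1, Gpr34 and P2ry13 (adjusted p = 0.0399, 0.00623 and 0.0375), and none rose. Csf1r, the highest of the 12, was not called (limma adjusted p = 0.259). It averaged 423784 ± 16579.6 in BODIPY-high and 478118 ± 15312 in BODIPY-low libraries (normalised reads, SD, n = 3 each). Of 9 markers of choroid plexus epithelium all 9 rose, and their summed normalised reads ran from 151325 to 264819 in BODIPY-high and from 3759 to 18678 in BODIPY-low libraries, with Ttr and Enpp2 the highest and none at 0 in either group. Of 11 neutrophil markers 10 fell, and their sum ran from 201 to 2396 in BODIPY-high and from 31482 to 82945 in BODIPY-low libraries, with Ngp and Ltf the highest. Of the monocyte markers tested 3 of 4 fell (sums of 102 to 572 in BODIPY-high and 5903 to 12714 in BODIPY-low libraries). Chil3 made up most of that sum, averaging 171.5 in BODIPY-high and 7410 in BODIPY-low libraries. Ccr2 overlapped between the groups and was not called (limma adjusted p = 0.194). Vcan and Plac8 were too low to be tested. Vcan was at 0 in all BODIPY-low libraries, and Plac8 was lower in each BODIPY-high library than in any BODIPY-low library. Both tested ependyma markers rose (sums of 135 to 199 in BODIPY-high and 1.07 to 22.9 in BODIPY-low libraries), with Rarres2 at 0 in all BODIPY-high libraries and Foxj1 at 0 in BODIPY-low replicates 2 and 3. Of the tested markers, 1 of 6 of border macrophages, 1 of 4 of neurons and 1 of 5 of astrocytes rose. At an unadjusted limma p below 0.05, 4, 2 and 2 were higher. Over all listed markers of each type, every BODIPY-high sum exceeded every BODIPY-low sum. Border macrophage sums averaged 1463 ± 221 in BODIPY-high and 916 ± 162 in BODIPY-low libraries (normalised reads, SD, n = 3 each). Neuron sums averaged 139.8 ± 8.43 and 28.9 ± 2.75, and astrocyte sums 941 ± 40.3 and 450 ± 52.4, in the same order. Oligodendrocyte sums also lay apart and endothelial sums overlapped. limma called 0 of 4 oligodendrocyte and 0 of 5 endothelial markers (3 and 1 at an unadjusted p below 0.05), edgeR called 1 and 0, and DESeq2 2 and 0. BODIPY-low replicate 1 has the highest sum of both the choroid plexus and the neutrophil markers among the BODIPY-low libraries. These marker levels move with the group in every result below, and their part in the results was not tested. In such sorted pools, a change in how many cells of a type are present and a change in RNA per cell cannot be told apart. The labels name no separate batch, and nothing says that the pools are separate beyond their labels, so p-values cover just the spread among 6 libraries, which may be technical.

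Differences between BODIPY-high and BODIPY-low microglia in the 33 lysosomal genes were small, and no estimate exceeded 0.52 on the log2 scale in either direction. With limma on log2(normalised reads + 1), 4 were higher in BODIPY-high libraries at a Benjamini-Hochberg adjusted p below 0.05 over 12821 tested genes, namely Gaa, Gm2a, Lamp1 and Glb1. They make up 12.1% of the 33, against 9.79% of all tested genes called higher and 6.16% among the 7465 tested genes with a mean at least as high as that of the lowest of the 33. limma called 0 of the 33 lower, against 3.52% of all tested genes and 4.41% of those 7465. At an unadjusted p below 0.05, 11 of the 33 were higher and 1 lower, against 16.1% and 11.0% of all tested genes. edgeR called 3 higher (9.48% of all tested genes) and 0 lower (3.33%), and DESeq2 9 higher (11.4%) and 1 lower (5.24%). A limma fit with the replicate number as a block called 10 of the 33 higher and 1 lower. It called 1451 of the 12821 tested genes higher and 760 lower. The labels do not state such a pairing. On simulated counts of 3 against 3 libraries, DESeq2 made more false calls than its threshold allows and more than limma or edgeR did. Whether the same holds for its calls in these libraries was not tested. Each of the 4 limma calls is small, with a log2 fold change between 0.29 and 0.33. The median over the 33 was 0.03, beside -0.01 over all tested genes.

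In 9 of the 33 the lowest BODIPY-high library exceeded the highest BODIPY-low library, against 18.0% of all tested genes, and in 2 the order was the opposite, against 13.4%. The other 22 overlapped. Taken as differences to the BODIPY-low mean, the median over the 33 was 0.06, 0.08 and -0.01 on the log2 scale in BODIPY-high libraries 1 to 3, and 0.04, -0.02 and -0.02 in BODIPY-low libraries 1 to 3. The summed normalised reads of the 33 were 741017, 750723 and 690184 in BODIPY-high libraries 1 to 3, and 680852, 661894 and 654001 in BODIPY-low libraries 1 to 3. They took 2.58% ± 0.0834 of all reads in BODIPY-high and 2.38% ± 0.0142 in BODIPY-low libraries (SD, n = 3 each). The number of limma calls among the 33 rests on single libraries. Leaving out BODIPY-high replicate 1, 2 or 3 gave 2, 3 and 1. Leaving out BODIPY-low replicate 1, 2 or 3 gave 6, 1 and 0. Calls over all genes moved too, from 1706 with every library. They were 1598, 1533 and 908 without BODIPY-high replicate 1, 2 or 3. Without BODIPY-low replicate 1, 2 or 3 they were 1648, 1057 and 1047.

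**Figure D1:**
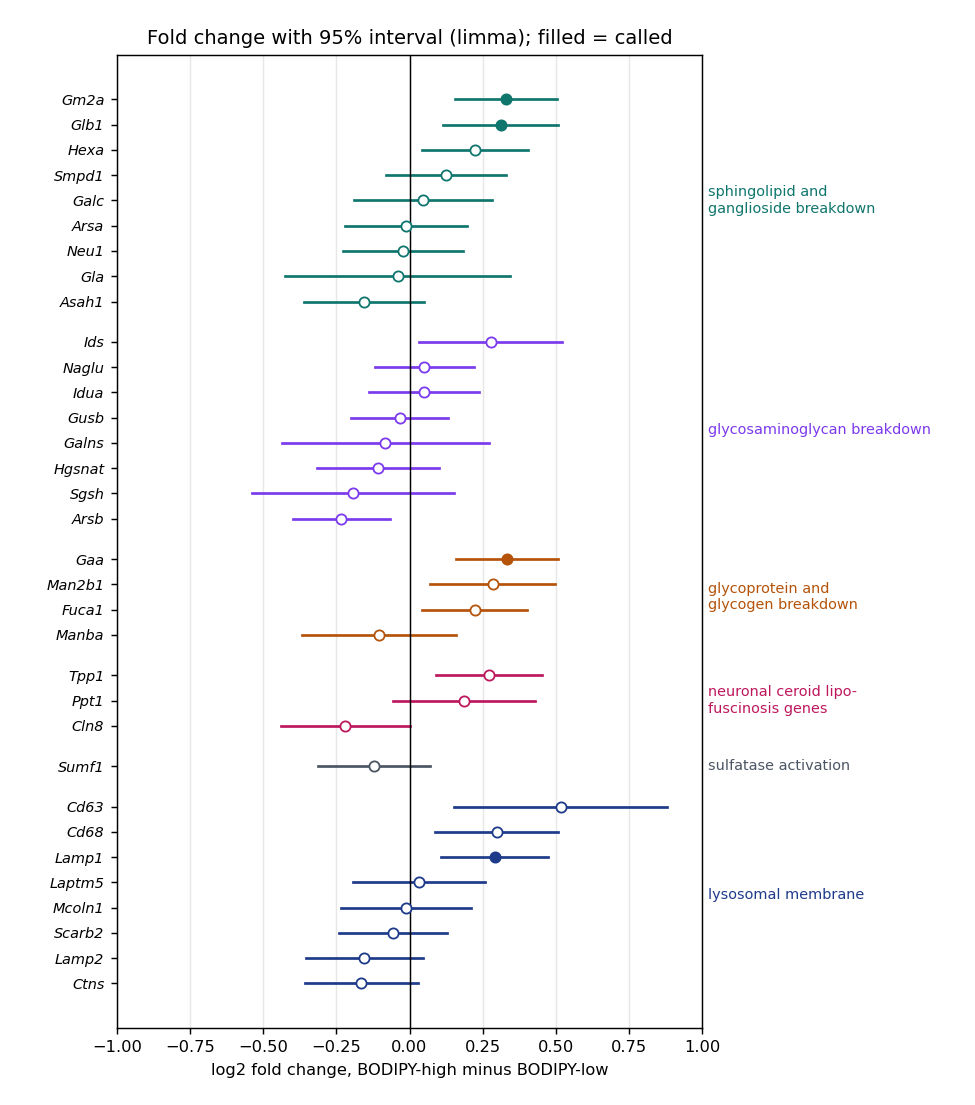
Log2 fold change (x axis, BODIPY-high minus BODIPY-low, on the log2(normalised reads + 1) scale) of each of the 33 genes (y axis), grouped by role, with the 95% interval from limma as a line and a filled point for the 4 called genes. Point estimates run from -0.23 for Arsb to 0.52 for Cd63, and the filled points are Gm2a, Glb1, Gaa and Lamp1, all right of 0.

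Of 9 genes for the breakdown of sphingolipids and gangliosides, 2 rose in BODIPY-high libraries, none fell, and the median log2 fold change was 0.05. Gm2a encodes the GM2 activator, the cofactor that lifts the ganglioside GM2 out of the membrane for beta-hexosaminidase A (GRCm38, as for all genes here, chromosome 11, 55098115 to 55113029, plus strand). It had 17441, 15697 and 15503 normalised reads in BODIPY-high libraries 1 to 3, against 12772, 12789.7 and 13063 in BODIPY-low libraries 1 to 3. The BODIPY-low values lie close together, and every BODIPY-high value is above them. By limma the log2 fold change was 0.33 (adjusted p = 0.0183, SE 0.08), and the call was lost without BODIPY-low replicate 2 or 3 (adjusted p up to 0.0709).

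Glb1 encodes lysosomal beta-galactosidase, which takes the terminal galactose off GM1 ganglioside and keratan sulfate and is mutated in GM1 gangliosidosis (chromosome 9, 114401076 to 114474898, plus strand). Its normalised reads were 6016, 5318 and 5516 in BODIPY-high libraries 1 to 3, and 4486, 4269.6 and 4815 in BODIPY-low libraries 1 to 3. The groups do not overlap, and the log2 fold change was 0.31 (limma, SE 0.09, adjusted p = 0.0414). Of the 6 fits that leave out 1 library, the 1 without BODIPY-high replicate 2 kept the call and the others reached adjusted p values of up to 0.170, and edgeR did not make it (adjusted p = 0.0528). Exons of Glb1 share 165 bases with Tmppe on the same strand, which averaged 1129.8 normalised reads in BODIPY-high and 1280.2 in BODIPY-low libraries.

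Hexa encodes the alpha subunit of beta-hexosaminidase A and is mutated in Tay-Sachs disease (chromosome 9, 59539540 to 59565109, plus strand). It had 58262, 66761 and 60541 normalised reads in BODIPY-high libraries 1 to 3, and 52528, 51579 and 54433 in BODIPY-low libraries 1 to 3. Every BODIPY-high value is above the BODIPY-low ones, with a log2 fold change of 0.23 (limma, SE 0.08) that did not pass (adjusted p = 0.101). DESeq2 and the fit with the replicate number as a block called Hexa higher, and edgeR did not. Exons of Hexa share 255 bases with Tmem202 on the other strand, which averaged 19.4 normalised reads in BODIPY-high and 16.9 in BODIPY-low libraries.

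The other 6 genes of sphingolipid breakdown overlapped between the groups, and none passed. Asah1, the acid ceramidase, averaged 25988 ± 2808 in BODIPY-high and 28864 ± 1532 in BODIPY-low libraries (normalised reads, SD, n = 3 each, 95% interval of the log2 fold change -0.36 to 0.05). Smpd1, the acid sphingomyelinase of Niemann-Pick disease types A and B, averaged 4359 ± 334 in BODIPY-high and 3991 ± 229 in BODIPY-low libraries (interval -0.08 to 0.33). Neu1, the sialidase that works in a complex with beta-galactosidase, averaged 3361 ± 277 in BODIPY-high and 3407 ± 105 in BODIPY-low libraries (interval -0.23 to 0.18). Arsa, the sulfatase lost in metachromatic leukodystrophy, Galc, the galactosylceramidase lost in Krabbe disease, and Gla, the alpha-galactosidase lost in Fabry disease, had log2 fold changes of -0.01, 0.05 and -0.04. Their intervals were -0.22 to 0.20, -0.19 to 0.28 and -0.43 to 0.34.

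None of the 8 genes for glycosaminoglycan breakdown passed in either direction with limma or edgeR, DESeq2 called 1, and their median log2 fold change was -0.06. At an unadjusted p below 0.05, 1 was higher (Ids) and 1 lower (Arsb). Both encode enzymes that strip sulfate from dermatan sulfate. Arsb, arylsulfatase B (chromosome 13, 93771630 to 93943016, plus strand), had 15134, 14937 and 13959 normalised reads in BODIPY-high libraries 1 to 3, against 16779, 17505 and 17430.3 in BODIPY-low libraries 1 to 3. Every BODIPY-high value is below the BODIPY-low ones (limma log2 fold change -0.23, SE 0.08, adjusted p = 0.0680). DESeq2 and the fit with the replicate number as a block called Arsb lower, and edgeR did not. Of its annotated exon bases, 32.3% also belong to Gm26527 on the other strand, and without strand, reads from these bases cannot be told apart. Gm26527 has no row among the deposited genes, and whether such reads were counted for Arsb is not stated. Ids, the iduronate sulfatase of Hunter syndrome, had 5819.6, 5251 and 6619 in BODIPY-high libraries 1 to 3, and 4432, 4704 and 5451 in BODIPY-low libraries 1 to 3. The lowest BODIPY-high value of Ids is below the highest BODIPY-low value (0.28, SE 0.11, limma adjusted p = 0.132). The fit with the replicate number as a block called Ids higher, and edgeR and DESeq2 did not.

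The remaining 6 genes of this role overlapped between the groups. Gusb, the beta-glucuronidase often used as a marker enzyme of lysosomes, averaged 13577 ± 272 in BODIPY-high and 13909.5 ± 604 in BODIPY-low libraries (normalised reads, SD, n = 3 each), with an interval of -0.20 to 0.13 on the log2 scale. Idua, the iduronidase of Hurler syndrome, averaged 4832 ± 109 in BODIPY-high and 4671 ± 297 in BODIPY-low libraries (interval -0.14 to 0.24). The heparan sulfate enzymes lost in the types of Sanfilippo syndrome included Naglu, at 10264 ± 269 in BODIPY-high and 9912 ± 413 in BODIPY-low libraries (interval -0.12 to 0.22). Hgsnat, the acetyltransferase of the same pathway, averaged 3027 ± 241 in BODIPY-high and 3254 ± 120.0 in BODIPY-low libraries (interval -0.31 to 0.10). Sgsh, the heparan sulfamidase, and Galns, a galactosamine sulfatase, had the lowest levels of the role and wider intervals, of -0.54 to 0.15 and -0.44 to 0.27.

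Among 4 genes for glycoprotein and glycogen breakdown, 1 rose and none fell, with a median log2 fold change of 0.25. Gaa encodes acid alpha-glucosidase, which digests glycogen inside lysosomes and is mutated in Pompe disease (chromosome 11, 119267887 to 119285454, plus strand). It had 14122, 14162 and 15537 normalised reads in BODIPY-high libraries 1 to 3, against 11128, 12076 and 11548 in BODIPY-low libraries 1 to 3. All BODIPY-high values lie above all BODIPY-low values (limma log2 fold change 0.33, SE 0.08, adjusted p = 0.0182). The call was lost without BODIPY-high replicate 3 or BODIPY-low replicate 3 (adjusted p up to 0.0952).

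Man2b1, the lysosomal alpha-mannosidase (chromosome 8, 85083270 to 85098282, plus strand), had 88363, 76460.4 and 70856 normalised reads in BODIPY-high libraries 1 to 3, and 68261, 61568 and 62946 in BODIPY-low libraries 1 to 3. The groups do not overlap, though BODIPY-high replicate 3 stands near BODIPY-low replicate 1 (0.29, SE 0.10, limma adjusted p = 0.0803). DESeq2 and the fit with the replicate number as a block called Man2b1 higher, and edgeR did not. Fuca1, the alpha-fucosidase of fucosidosis (chromosome 4, 135920735 to 135940311, plus strand), had 6534, 7046 and 6676 in BODIPY-high libraries 1 to 3, and 6056, 5506 and 5805 in BODIPY-low libraries 1 to 3. It too did not overlap and did not pass (0.22, SE 0.08, limma adjusted p = 0.103). Manba, the beta-mannosidase that acts on the last mannose of the N-glycan core, averaged 4205 ± 685 in BODIPY-high and 4494 ± 387 in BODIPY-low libraries (normalised reads, SD, n = 3 each) and overlapped (interval -0.37 to 0.16).

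Of 3 genes of neuronal ceroid lipofuscinosis none passed with limma or edgeR, and 1 of them was higher at an unadjusted p below 0.05. That gene, Tpp1 (chromosome 7, 105744811 to 105752235, minus strand), encodes tripeptidyl peptidase 1, which is a protease although the list otherwise holds other enzymes. It had 28666, 26722 and 25446 normalised reads in BODIPY-high libraries 1 to 3, and 23836, 21660.4 and 21473 in BODIPY-low libraries 1 to 3. The groups do not overlap (0.27, SE 0.08, limma adjusted p = 0.0531), and limma's robust variance model and DESeq2 called it. Ppt1, which takes palmitate off proteins, averaged 18615 ± 2415 in BODIPY-high and 16332 ± 1732 in BODIPY-low libraries (normalised reads, SD, n = 3 each, interval -0.06 to 0.43). Cln8, a membrane protein of the endoplasmic reticulum that helps load lysosomal enzymes for export, averaged 7225 ± 757 in BODIPY-high and 8401 ± 734 in BODIPY-low libraries (interval -0.44 to 0.00). Sumf1, also of the endoplasmic reticulum, makes the formylglycine on which all sulfatases depend, and averaged 4176 ± 255 in BODIPY-high and 4536 ± 170.4 in BODIPY-low libraries (interval -0.31 to 0.07). Neither of these 2 proteins is a hydrolase.

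Of 8 genes of the lysosomal membrane, 1 rose, none fell and the median log2 fold change was 0.01. Lamp1, one of the most abundant glycoproteins of the lysosomal membrane (chromosome 8, 13159161 to 13175338, plus strand), had 88852, 83279 and 78763 normalised reads in BODIPY-high libraries 1 to 3, against 71395, 66243 and 67304 in BODIPY-low libraries 1 to 3. The groups do not overlap (limma log2 fold change 0.29, SE 0.08, adjusted p = 0.0401). Of the 6 fits that leave out 1 library, the 1 without BODIPY-low replicate 1 kept the call and the others reached adjusted p values of up to 0.140, and it was lost with TMM scaling and with no filter on low values. Exons of Lamp1 share 249 bases with Grtp1 on the other strand, which averaged 19.7 normalised reads in BODIPY-high and fewer in BODIPY-low libraries. Lamp2, its relative that also serves as receptor of chaperone-mediated autophagy, had 42452, 34127 and 37425 in BODIPY-high libraries 1 to 3, and 42658, 42084 and 41628 in BODIPY-low libraries 1 to 3. BODIPY-high replicate 1 is within the BODIPY-low range of Lamp2 and the others are below it (limma -0.15, adjusted p = 0.312).

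Cd68, the macrophage sialomucin related to the LAMP proteins (chromosome 11, 69664213 to 69666153, minus strand), had 45316, 45143 and 39963 normalised reads in BODIPY-high libraries 1 to 3, and 38155, 31400.5 and 36742 in BODIPY-low libraries 1 to 3. The groups do not overlap, and limma did not call the gene (0.30, SE 0.10, adjusted p = 0.0656). DESeq2, limma's robust variance model and the fit with the replicate number as a block called Cd68 higher, and edgeR did not. Cd63, a tetraspanin of late endosomes and lysosomes, had 22795, 22008 and 19695 in BODIPY-high libraries 1 to 3, and 20602, 11802 and 13866 in BODIPY-low libraries 1 to 3. BODIPY-low replicate 1 is among the BODIPY-high values and the other BODIPY-low libraries lie well below. Cd63 has the largest estimate of the 33 (0.52, SE 0.17, limma adjusted p = 0.0650), and without BODIPY-low replicate 1 it was 0.75 and called (adjusted p = 0.00127). DESeq2 and the fit with the replicate number as a block also called Cd63 higher, and edgeR did not.

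Ctns, the cystine carrier of cystinosis (chromosome 11, 73183596 to 73199042, minus strand), had 4005, 4340.2 and 3903 normalised reads in BODIPY-high libraries 1 to 3, and 4349.6, 4841 and 4536 in BODIPY-low libraries 1 to 3. Its highest BODIPY-high value is just below its lowest BODIPY-low value (-0.16, SE 0.09, limma adjusted p = 0.266). Laptm5, a lysosomal membrane protein of blood cells, averaged 188887 ± 21969.7 in BODIPY-high and 184183 ± 10662 in BODIPY-low libraries (normalised reads, SD, n = 3 each, interval -0.19 to 0.26). Scarb2, the receptor that carries beta-glucocerebrosidase to lysosomes, averaged 8083 ± 507 in BODIPY-high and 8407 ± 388 in BODIPY-low libraries (interval -0.24 to 0.13). Mcoln1, the calcium channel TRPML1, averaged 2715 ± 207 in BODIPY-high and 2739 ± 207 in BODIPY-low libraries (interval -0.23 to 0.21).

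**Figure D2:**
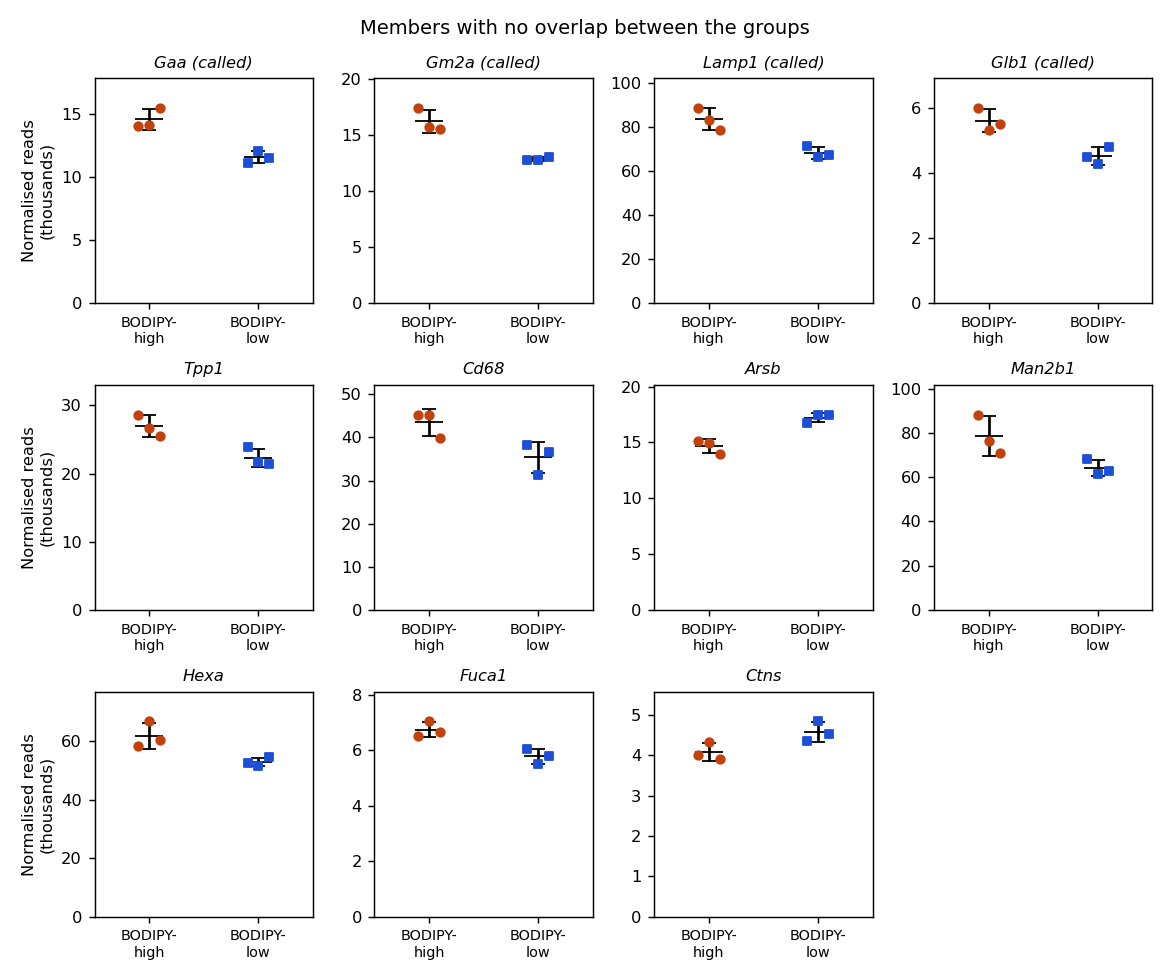
Normalised reads divided by 1000 (y axis, starting at 0) of the 11 lysosomal genes whose groups do not overlap, with 1 point per library, BODIPY-high left of BODIPY-low, and the mean ± SD in black. BODIPY-high libraries are above in 9 panels and below in those of Arsb and Ctns, and the 4 called genes are marked.

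Ratios of paired genes inside 1 library do not depend on how libraries were scaled. These pairs were chosen after their values were seen, so the ratios are a description. The ratio of Lamp1 to Lamp2 reads was 2.09, 2.44 and 2.11 in BODIPY-high libraries 1 to 3, and 1.67, 1.57 and 1.62 in BODIPY-low libraries 1 to 3. It was higher in each BODIPY-high library than in any BODIPY-low library. For Glb1 over Neu1, whose products form a complex, the ratio averaged 1.69 ± 0.253 in BODIPY-high and 1.33 ± 0.115 in BODIPY-low libraries (SD, n = 3 each).

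Levels among the 33 differed far more than the groups did. Set per kilobase of coding transcript, which allows genes to be compared, Laptm5 was the highest, at 72649 ± 8449.9 in BODIPY-high and 70839.7 ± 4101 in BODIPY-low libraries (normalised reads per kilobase, SD, n = 3 each). Cd68 had 38851 ± 2719 in BODIPY-high and 31664 ± 3184 in BODIPY-low libraries, Lamp1 37519.7 ± 2267 in BODIPY-high and 30648 ± 1221 in BODIPY-low, Hexa 30989 ± 2204 in BODIPY-high and 26476 ± 728 in BODIPY-low and Man2b1 20555 ± 2339 in BODIPY-high and 16813 ± 925 in BODIPY-low. Within BODIPY-high libraries the means of Cd68 and Lamp1 differ by less than their SD. The lowest were Gla, at 116 ± 6.96 in BODIPY-high and 120.4 ± 20.2 in BODIPY-low libraries, Sgsh, at 179.6 ± 33.9 in BODIPY-high and 204 ± 22.3 in BODIPY-low, and Galns, at 334 ± 68.9 in BODIPY-high and 351 ± 33.2 in BODIPY-low. The same 5 genes were the highest when all annotated exons were used as the length. The low end depended on the length. With all annotated exons Galc was the lowest, at 113 normalised reads per kilobase over the 6 libraries, beside 115 for Gla. Per coding transcript Galc averaged 440. Not per length, Laptm5 ranks 9th by mean normalised reads among the 12821 tested genes and Gla 7465th. All 33 passed the filter on low values, and 30 of them have a mean above 1000 normalised reads.

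**Figure D3:**
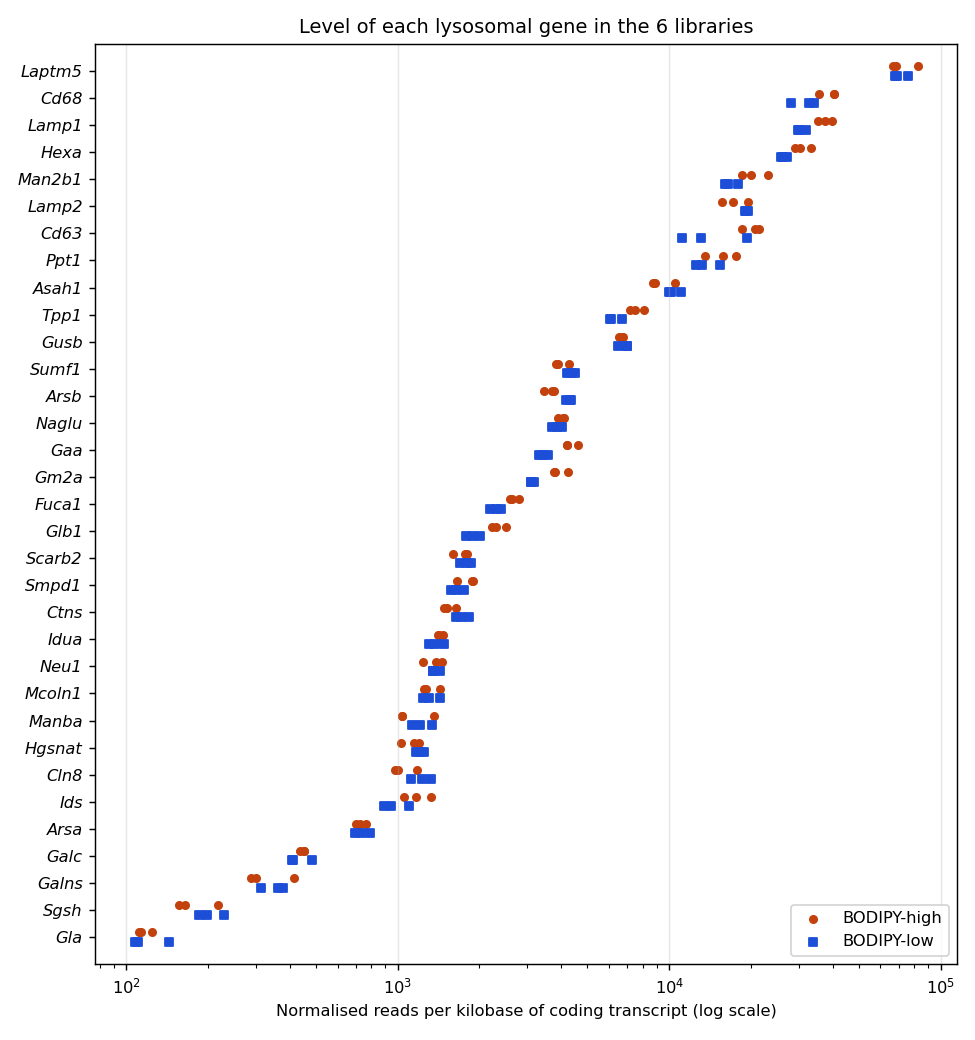
Normalised reads per kilobase of coding transcript (x axis, log scale) of each of the 33 genes (y axis, highest at the top) in each of 3 BODIPY-high libraries (circles) and 3 BODIPY-low libraries (squares). The genes run from Gla at the bottom to Laptm5 at the top, and within nearly every gene the 6 points lie close together compared with the distance between genes.

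The spread between replicates was narrow for most of these genes. The SD came to between 2.00% (Gusb) and 20.6% (Galns) of the mean over the BODIPY-high libraries, and to between 1.23% (Lamp2) and 29.8% (Cd63) over the BODIPY-low libraries. The SE of the log2 fold change was between 0.08 and 0.17 for the 33, with a median of 0.09, beside a median of 0.17 over all tested genes. Over the 7465 tested genes with a mean at least as high as that of the lowest of the 33, the median SE was 0.13.

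**Figure D4:**
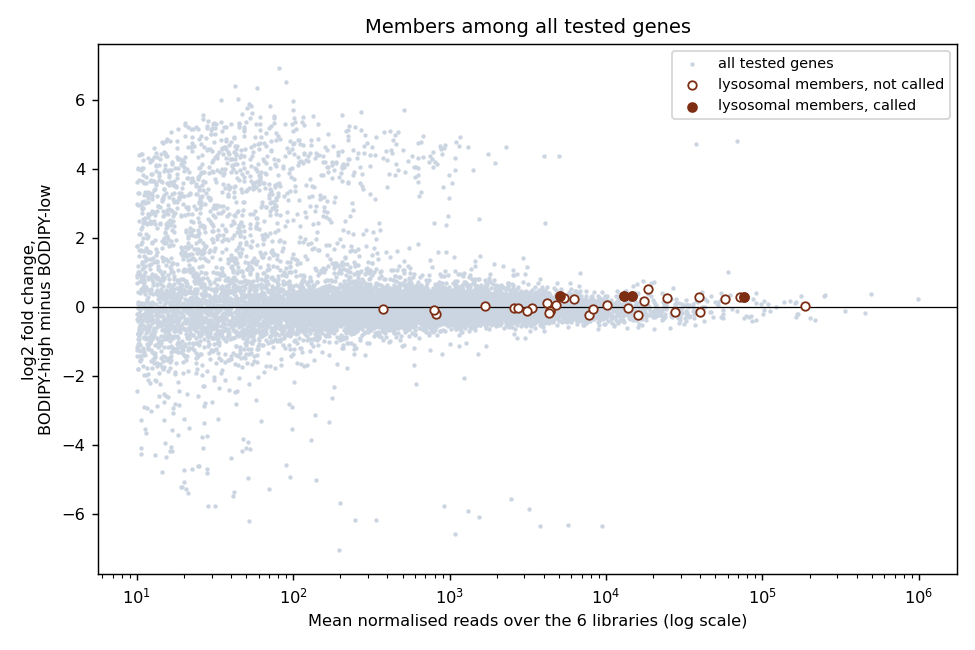
Log2 fold change (y axis, BODIPY-high minus BODIPY-low) against mean normalised reads over the 6 libraries (x axis, log scale) for the 12821 tested genes in grey and the 33 lysosomal genes in brown, filled where called. Most of the 33 lie to the right, and Gla, the lowest, ranks 7465th by mean. They span means of 375 to 186535, in a narrow band within 0.52 of 0, while other genes reach beyond 6 in both directions. Changes above 1 in size were few at such levels, in 123 of the 7465 tested genes with a mean at least that of the lowest of the 33.

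Promoter sequence was looked at because many lysosomal genes are known targets of TFEB and its relatives, which bind the letters CACGTG inside a longer element. Of the 33 genes, 29 have a promoter in the RefSeq set used here (250 bases before to 50 after the start, GRCm38.p6), and Asah1, Cln8, Galns and Hgsnat were not looked at. CACGTG, which reads the same on both strands, is in the promoters of 9 of the 29 (31.0%), against 11.8% of 9813 tested genes that have a promoter in the set. The longer TCACGTGA, which contains it, is in 3 of the 29, those of Gla, Mcoln1 and Sumf1, against 2.22% of the tested genes. CACGTG is in the promoters of 3 of the 4 called genes and of 6 of the 25 others. A match is only a match of letters, and none of these libraries measured binding.

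The promoters of Lamp1, Glb1 and Gaa are shown since these genes were called and hold the letters, and that of Mcoln1 since it holds TCACGTGA in a gene that was not called. Each runs 5′ to 3′ along its gene, and capitals mark CACGTG.
Lamp1 promoter (GRCm38.p6, chr8:13158911-13159210, plus strand): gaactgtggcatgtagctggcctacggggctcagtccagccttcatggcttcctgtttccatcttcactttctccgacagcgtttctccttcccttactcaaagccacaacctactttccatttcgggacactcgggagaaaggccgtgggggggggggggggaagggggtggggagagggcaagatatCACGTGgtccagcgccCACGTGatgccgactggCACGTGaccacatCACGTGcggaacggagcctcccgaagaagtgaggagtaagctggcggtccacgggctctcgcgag
Glb1 promoter (GRCm38.p6, chr9:114400828-114401127, plus strand): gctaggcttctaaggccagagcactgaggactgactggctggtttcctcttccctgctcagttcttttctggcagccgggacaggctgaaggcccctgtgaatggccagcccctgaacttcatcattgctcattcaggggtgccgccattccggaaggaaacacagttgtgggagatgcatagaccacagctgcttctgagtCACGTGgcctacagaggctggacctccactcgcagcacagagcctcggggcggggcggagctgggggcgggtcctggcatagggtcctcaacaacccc
Gaa promoter (GRCm38.p6, chr11:119267713-119268012, plus strand): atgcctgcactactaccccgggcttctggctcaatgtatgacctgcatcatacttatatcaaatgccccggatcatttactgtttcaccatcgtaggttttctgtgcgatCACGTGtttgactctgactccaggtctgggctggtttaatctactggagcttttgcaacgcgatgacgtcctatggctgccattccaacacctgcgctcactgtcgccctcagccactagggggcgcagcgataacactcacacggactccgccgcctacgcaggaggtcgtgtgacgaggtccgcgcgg
Mcoln1 promoter (GRCm38.p6, chr8:3500269-3500568, plus strand): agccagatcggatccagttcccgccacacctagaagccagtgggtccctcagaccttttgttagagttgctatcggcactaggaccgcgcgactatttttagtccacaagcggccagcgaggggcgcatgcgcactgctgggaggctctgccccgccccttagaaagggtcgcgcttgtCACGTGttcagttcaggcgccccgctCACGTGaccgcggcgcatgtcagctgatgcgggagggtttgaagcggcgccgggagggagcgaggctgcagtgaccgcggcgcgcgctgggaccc
Lamp1 has 4 matches, which begin 61, 45, 28 and 15 bases upstream of the start. Glb1 has 1 that begins 48 bases upstream, and Gaa has 1 that begins 140 bases upstream. Mcoln1 has 2, which begin 71 and 45 bases upstream. Gm2a, the other called gene, has no CACGTG in its window.

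The genes of the factors themselves did not pass. Tfeb had 1539.8 ± 129.6 in BODIPY-high and 1484 ± 78.4 in BODIPY-low libraries (normalised reads, SD, n = 3 each), Tfe3 had 6419.6 ± 243 in BODIPY-high and 5781 ± 536 in BODIPY-low libraries, and Mitf had 1045 ± 215 in BODIPY-high and 874 ± 25.8 in BODIPY-low libraries. None of these 3 passed with limma (adjusted p = 0.812, 0.311 and 0.362), none at an unadjusted p below 0.05, and neither edgeR nor DESeq2 called any.

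Other lysosomal genes were listed by role, with earlier results of these data known. Of 64 tested in 4 lists, limma called 7 higher (10.9%) and 4 lower (6.25%), against 9.79% and 3.52% of all tested genes, and their median log2 fold change was 0.02. Of 23 other hydrolases and cofactors 4 rose and 1 fell (median 0.11). Smpdl3a, a phosphodiesterase related to the acid sphingomyelinase, had 2223, 2516 and 2489 normalised reads in BODIPY-high libraries 1 to 3, and 1719.7, 1652 and 1946 in BODIPY-low libraries 1 to 3 (0.44, adjusted p = 0.0179). The peptidase gene Dpp7 (0.47), Npc2, whose product moves cholesterol within lysosomes (0.41), and Plbd2 (0.29) also rose, with adjusted p of 0.0272, 0.0470 and 0.0383. Pla2g15, the lysosomal phospholipase A2, fell to 32401, 34564 and 30383 in BODIPY-high libraries 1 to 3, against 42892, 40398 and 37584 in BODIPY-low libraries 1 to 3 (-0.31, adjusted p = 0.0344). Nearest to the threshold without passing were Acp5, a phosphatase with few reads (39.0 ± 3.69 in BODIPY-high and 10.4 ± 8.85 in BODIPY-low libraries, SD, n = 3 each, adjusted p = 0.0535), and Creg1 (adjusted p = 0.0576).

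Of 26 other lysosomal membrane genes 1 rose and 3 fell (median -0.07). Tmem63a, an ion channel, averaged 8834 ± 636 in BODIPY-high and 11735 ± 498 in BODIPY-low libraries (normalised reads, SD, n = 3 each) and fell by 0.41 on the log2 scale (adjusted p = 0.00876). Slc29a3, a nucleoside carrier, fell by 0.28 and Slc15a4, a carrier of histidine and peptides, by 0.29 on the log2 scale (adjusted p = 0.0255 and 0.0423). Laptm4b, a relative of Laptm5, rose by 0.38 (adjusted p = 0.0392). Abca2 and Gpnmb came nearest to passing among the rest (adjusted p = 0.0568 and 0.0592). Of 12 genes that deliver enzymes to lysosomes, 2 rose and none fell. Igf2r, the large mannose 6-phosphate receptor, had 444, 204 and 403 normalised reads in BODIPY-high libraries 1 to 3, and 111, 89.5 and 123 in BODIPY-low libraries 1 to 3, and Igf2r had the largest change of any called gene in the 4 lists (1.62, SE 0.30, adjusted p = 0.00515). Gnptg, a subunit of the enzyme that starts the mannose 6-phosphate tag, rose by 0.41 (adjusted p = 0.0406). M6pr, the small mannose 6-phosphate receptor, averaged 12776 ± 202 in BODIPY-high and 12785 ± 108 in BODIPY-low libraries. Gga2 and Sort1, adaptor and sorting receptor, came nearest to passing among the others (adjusted p = 0.185 and 0.197). Without BODIPY-high replicate 1, 2 or 3 the 4 lists held 5, 6 and 1 called genes. Without BODIPY-low replicate 1, 2 or 3 they held 14, 2 and 4. Igf2r was among the called genes each time.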

How the data were processed

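Gene expression was measured by RNA sequencing in 3 BODIPY-high and 3 BODIPY-low samples of about 10000 sorted microglia each. Amplification used SmartSeq v4 and tagmentation used Nextera XT, per the labels' protocols, with paired reads of 100 bases. According to the submitters' processing notes and design text, FastQC 0.11.4, STAR 2.5.3a with its own gene counting, and DESeq2 were used on mm10, and the notes also list mm9. These kits do not mark strand. For the annotation used in counting, the sources here state nothing.

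The deposited values are a signal that the authors made by dividing each read count by 1 size factor per library. Whole reads were recovered for 100% of values (tolerance 0.01 read), between 24982215 and 34899425 per library, and served edgeR 4.0.16 and DESeq2 1.42.0 as alternatives. Reads are amplified without molecular identifiers. The main test was two-sided in limma 3.58.1 under R 4.3.3, with a variance trend and no block, on log2(value + 1) of the 12821 genes whose mean reached 10, with Benjamini-Hochberg adjustment over all of them and a threshold of 0.05. The pseudocount shrinks changes of low genes. 95% intervals are limma's. Coordinates and lengths came from GENCODE M21 (GRCm38), which matched 15532 of 16179 symbols (96.0%), and the length used per gene was the median over its basic protein-coding transcripts. Promoters came from RefSeq.

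The 33 genes, the lists of other lysosomal genes and of cell type markers, and the rule for naming genes (called genes, then genes whose groups do not overlap, then the 5 highest per length) were chosen with earlier results of these data known. Alternatives were other pseudocounts, filters, scalings, variance models and tools, the replicate number as a block, and each library left out.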

Additional observations from a re-analysis of the deposited data

How the results depend on the processing

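Over 16 alternatives, the median log2 fold change of the 33 genes moved by less than the spread between libraries, and 27 of the 33 genes kept the sign of their estimate. Other filters, the robust variance model and the replicate number as a block leave each estimate as it was, so they could not move a median or a sign. Other pseudocounts hardly moved the estimates. Among the 33, limma called 4, DESeq2 called 10 and a fit with the replicate number as a block called 11. DESeq2 made more false calls on simulated counts of this size than its threshold allows, and its false calls in these libraries were not tested. That block raised calls among the other lysosomal genes to 17, against 11 without it, and calls over all genes to 2211, against 1706. Same-numbered libraries of the 2 groups had correlations of their deviations of 0.110, 0.144 and 0.0728 for numbers 1, 2 and 3, each the highest for that BODIPY-high library, which is a hint from the data and not a pairing stated by the labels. With 1 library left out, calls ran from 0 to 6 among the 33, from 1 to 14 among the other lysosomal genes, and from 908 to 1648 over all genes, with the lowest of these counts over all genes without BODIPY-high replicate 3, and 1057 and 1047 without BODIPY-low replicates 2 and 3. The causes of these shifts were not tested. The 6 genes whose estimate changed sign were not called and had main estimates of at most 0.083 in size. With markers and large changes left out of the scaling, Arsa was at 8.86e-04 and Mcoln1 at 3.55e-04. With 1 library left out, Neu1 ranged from -0.0750 to 0.0432, Arsa from -0.0559 to 0.0384, Gla from -0.117 to 0.0934, Galns from -0.246 to 0.0133, Laptm5 from -0.0620 to 0.0871 and Mcoln1 from -0.0745 to 0.0458. With 3 libraries a group, several intervals of genes that were not called, such as those of Smpd1 and Ppt1, still hold changes as large as those of the called genes.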
